A study of Rattus norvegicus with 30 samples.

Results

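Among the genes counted in 30 libraries of rat brain tissue, 45 rose and fell together from rat to rat along the first principal component. This is the direction in which the libraries differed most when genes were not scaled to unit variance. After such scaling, the members followed the second component and not the first. The 45 were chosen by a rule on measured values. Log2 CPM (the count scaled to a common library size, with a prior count of 2) of genes with 10 or more counts in at least 5 libraries were centred per gene, and members had a standard deviation over 1 log2 unit, a total count over 150 and a Pearson r of 0.85 or more with the component, on the side that held more such genes. They were 45 of the 15897 genes that entered the component analysis, or 0.283%, and the tables list 32552 identifiers in all. Because the rule used the levels of these genes in these same 30 libraries, the spread of the members and their correlations are given as a description and were not tested. The rule did not use the groups of the study.

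All rats were adult male Sprague-Dawley rats of wild type genotype, and 1 library was made per rat. CT rats (n = 7) took saline and received no foot-shocks. SR rats (shock-resistant, n = 7) and SS rats (shock-sensitive, n = 6) self-administered methamphetamine (METH) for 21 days, followed by 8 days in which presses on the drug lever were also punished by foot-shocks. SR rats went on pressing under punishment whereas SS rats reduced it, so that these groups were formed from the behavior of the rats. The yoked rats took saline, and each got the shocks earned by a partner, an SR rat for YSR (n = 5) and an SS rat for YSS (n = 5). The protocol in the sample records and the methods of the study name the hippocampus, but the tissue field of the same records says dorsal striatum. The sources differ on the time of dissection, which the records and another passage of the study put 2 h after the end of the experiment and the methods put directly after the last session. The tables give Ensembl gene identifiers, of which 0 could be matched to a symbol with the gene table used here, so that hippocampal and striatal marker genes were not analysed here and the labelled tissue was not checked.

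The rule names the choroid plexus, or another tissue beside the hippocampus, as a candidate for these genes, and it expects ENSRNOG00000016275 to be Ttr. The choroid plexus is a vascular fold of the brain ventricles, covered by an epithelium that secretes the cerebrospinal fluid, and parts of it lie along the edge of the hippocampus. Its epithelium is the main site in the brain at which transthyretin, the product of Ttr, is made, and transthyretin carries thyroid hormone and, together with retinol-binding protein, vitamin A. This is background. Without symbols, the identity of ENSRNOG00000016275 and the markers of choroid plexus, ependyma, meninges and other cell types were not analysed here, so that the 45 genes are called by their identifiers and their component. In bulk tissue, fewer cells of a type and less RNA per cell cannot be told apart.

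Total counts ranged from 14584340 to 19997820 per library, and no pair of libraries held identical values. The titles of the libraries carry a code, XII or XIII, and a letter, L or R, whose meaning the labels do not give. Code XII was on 1 CT, 4 SR, 2 SS, 3 YSR and 1 YSS library, and code XIII on 6 CT, 3 SR, 4 SS, 2 YSR and 4 YSS libraries. A floor of 3 counts in a library was used, below which a gene was treated as not detectable at this depth.

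The first component held 14.5% of the variance of the 15897 genes, compared to 7.71% for the second and 6.06% for the next. The 45 members, 0.283% of the genes, accounted for 47.8% of its squared loading. A large share follows from the rule, which chose genes with a high standard deviation and a high r. Their r with the component ranged from 0.881 to 0.976 with a median of 0.954, and 24 of them were at 0.95 or more. Between members, r over the 30 libraries ranged from 0.741 to 0.994 with a median of 0.923 over 990 pairs. All points of such a correlation share their library and its scaling. The median standard deviation of the members was 1.38 log2 units, which was chosen to be high, against 0.153 over all genes that entered, and 11 members had a standard deviation over 2.

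**Figure D1:**
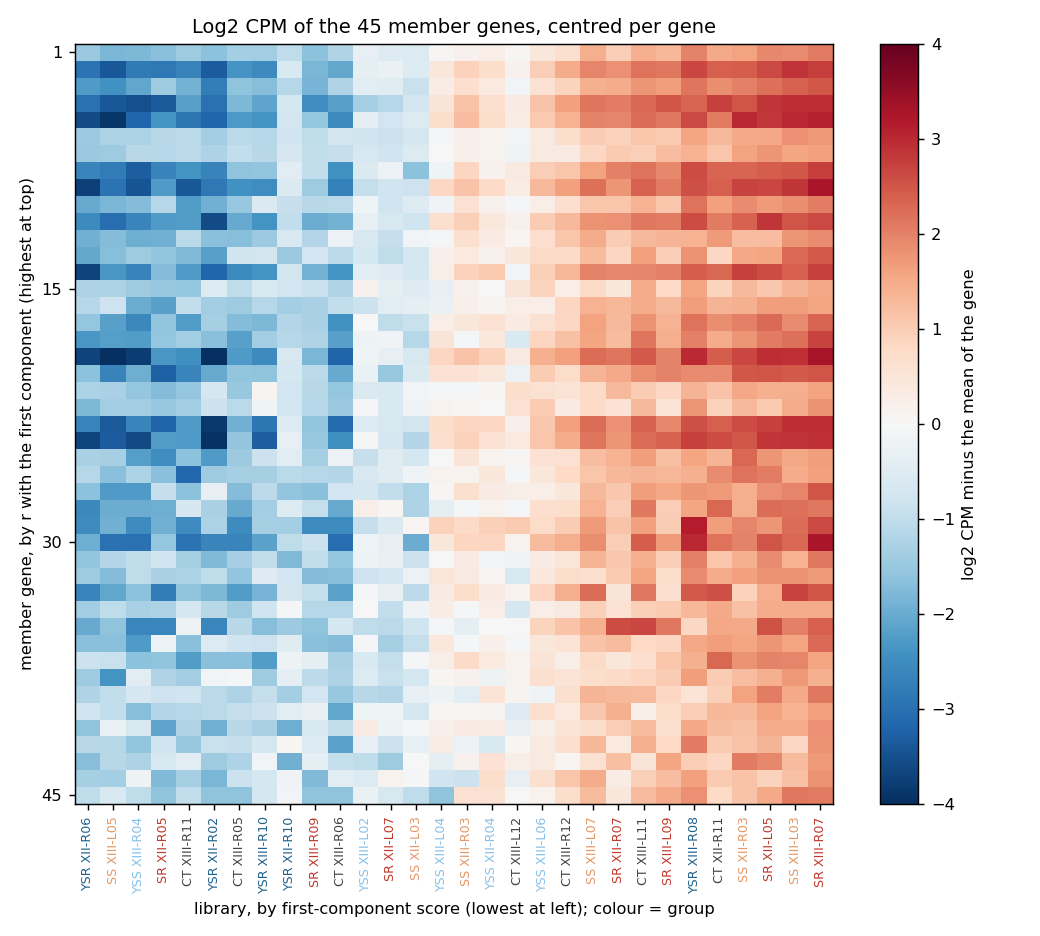
Log2 CPM of the 45 members, minus the mean of each gene, in the 30 libraries. Each row is a gene, ordered by its r with the component, and each column is a rat, ordered by its score on the component with the lowest at the left and coloured by group. Nearly every gene passes from low (blue) to high (red) along the same order of rats, and each group has rats on both sides of the middle of that order, although the highest 10 hold no YSS rat and 4 of the 5 YSR rats are among the lowest 10.

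Among genes that passed on standard deviation and total count, none had an r between 0.837 and 0.881. The 3 members just inside it were ENSRNOG00000021323 (r = 0.890), ENSRNOG00000052389 (r = 0.881) and ENSRNOG00000016044 (r = 0.881). The 3 genes just outside it were ENSRNOG00000008902 (r = 0.837), ENSRNOG00000010797 (r = 0.825) and ENSRNOG00000008895 (r = 0.802). Of the members just inside, ENSRNOG00000052389 and ENSRNOG00000016044 were below 3 counts in 6 and 13 of the 30 libraries. The threshold on the standard deviation left out more genes, since 98 genes had an r of 0.85 or more and 51 of these had a standard deviation of 1 or less. The 3 nearest to it were ENSRNOG00000022721 (SD = 0.98, r = 0.857), ENSRNOG00000002831 (SD = 0.95, r = 0.904) and ENSRNOG00000008356 (SD = 0.91, r = 0.941). The 51 genes were more abundant than the members, with a median of 10.99 CPM against 4.04 CPM, and varied less, with a median standard deviation of 0.53. Thus, the 45 genes are the most variable end of a longer list.

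The component was lopsided. Of 157 genes that passed on standard deviation and total count, 45 were members, 11 had an r between 0.5 and 0.85, and 101 lay within 0.5 of 0. None had an r of -0.85 or less, and the lowest r among them was -0.49. Over all genes that entered, 636 had an r of 0.5 or more and 364 an r of -0.5 or less, of which the lowest was -0.81. There was therefore no opposite set of strongly variable genes that fell where the members rose.

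The most abundant member was ENSRNOG00000016275 (chr18:15532963-15540177 in the coordinates of the deposited tables, minus strand, 4 exon blocks with 701 exonic bases). Its level was 15.3, 22.6, 49.9, 189 and 2345 CPM in the 5 YSR rats and 20.8, 262, 534, 561 and 779 CPM in the 5 YSS rats, after sorting. The lowest, median and highest CT rat were at 32.1, 381 and 1597 CPM. The same values were 58.9, 1158 and 2881 CPM in SR rats, and 15.4, 1009 and 2215 CPM in SS rats. The lowest rat of each group was therefore at 58.9 CPM or less and the highest at 779 CPM or more, and the ranges of all 5 groups overlapped. Over the 30 rats this gene spanned 189-fold, with a mean of 789 CPM and a standard deviation of 859 CPM, so that the standard deviation exceeded the mean.

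ENSRNOG00000016275 alone made up 48.9% of the summed mean level of the members, and together with ENSRNOG00000004089 69.3%. It was also the highest member per length of exon, at 1125 RPKM (CPM divided by the exonic length in kilobases), followed by ENSRNOG00000004089 with 125 RPKM and ENSRNOG00000016957 with 33.9 RPKM, whereas the lowest member had 0.0896 RPKM. A summed level of the members is thus largely the level of this gene. For this reason it was set against the sum of the other 44, and on the log2 scale the r was 0.965 over the 30 libraries. In the rat with the lowest level of this gene it made up 6.36% of the summed level of the members, and in the rat with the highest 56.9%.

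**Figure D2:**
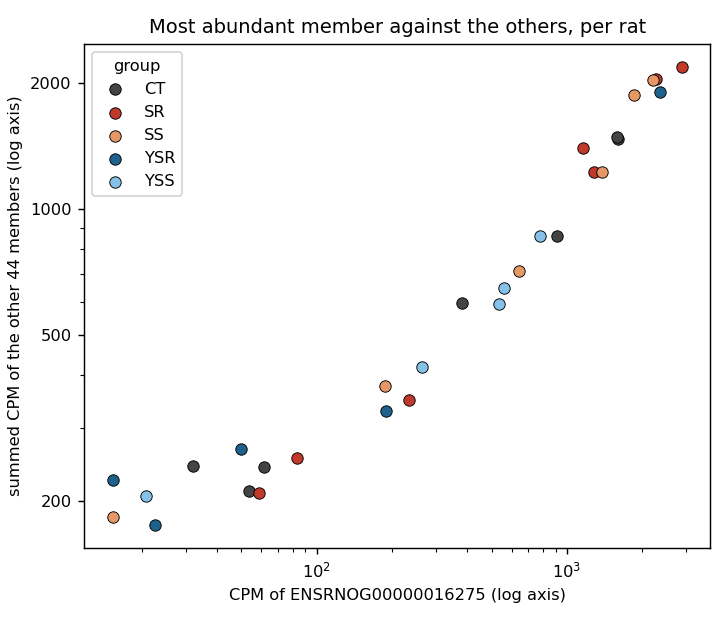
CPM of ENSRNOG00000016275 against the summed CPM of the other 44 members in the 30 rats, both on log axes, with 1 point per rat coloured by group. The points form 1 band from the lower left to the upper right (r = 0.965 on the log2 scale), which flattens towards its lower end, and each group has points at both ends except YSS, whose highest rat is at 779 CPM.

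ENSRNOG00000004089 (chr7:94480396-94563001, 34 exon blocks) ranged over the 30 rats from 89.4 to 866 CPM, or 9.68-fold. It lay between 119 and 539 CPM in CT, between 115 and 866 CPM in SR and between 95.1 and 763 CPM in SS rats. The lowest, median and highest values were 89.4, 118 and 664 CPM in YSR and 118, 255 and 327 CPM in YSS rats. Its groups overlapped as those of ENSRNOG00000016275 did, although its range was much narrower and its lowest rats were still well above the floor.

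The span differed between members, also among the 10 most abundant. ENSRNOG00000020369 (chr1:215828102-215846911, mean 91.1 CPM), ENSRNOG00000062101 (chr10:94170766-94187822, mean 35.5 CPM) and ENSRNOG00000004089 kept a sizeable level in the lowest rats and spanned 8.85, 9.76 and 9.68-fold. ENSRNOG00000001092 (chr12:943006-987551, mean 29.6 CPM), ENSRNOG00000057855 (chr13:82479998-82535534, mean 20.9 CPM) and ENSRNOG00000005770 (chr6:55812747-55817066, mean 19.1 CPM) reached 1.105, 0.624 and 0.407 CPM in their lowest rats and spanned 87.1, 105 and 158-fold. ENSRNOG00000026870 (chr11:32655616-32699382, mean 45.6 CPM), ENSRNOG00000016957 (chr9:80118029-80144789, mean 43.4 CPM) and ENSRNOG00000039107 (chr8:48437918-48443421, mean 32.1 CPM) complete the list, and spanned 39.0, 12.1 and 95.5-fold. The member with the highest r was ENSRNOG00000019902 (chr1:166934460-166943592), at 0.976, which had a mean of 10.6 CPM and spanned 15.7-fold.

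**Figure D3:**
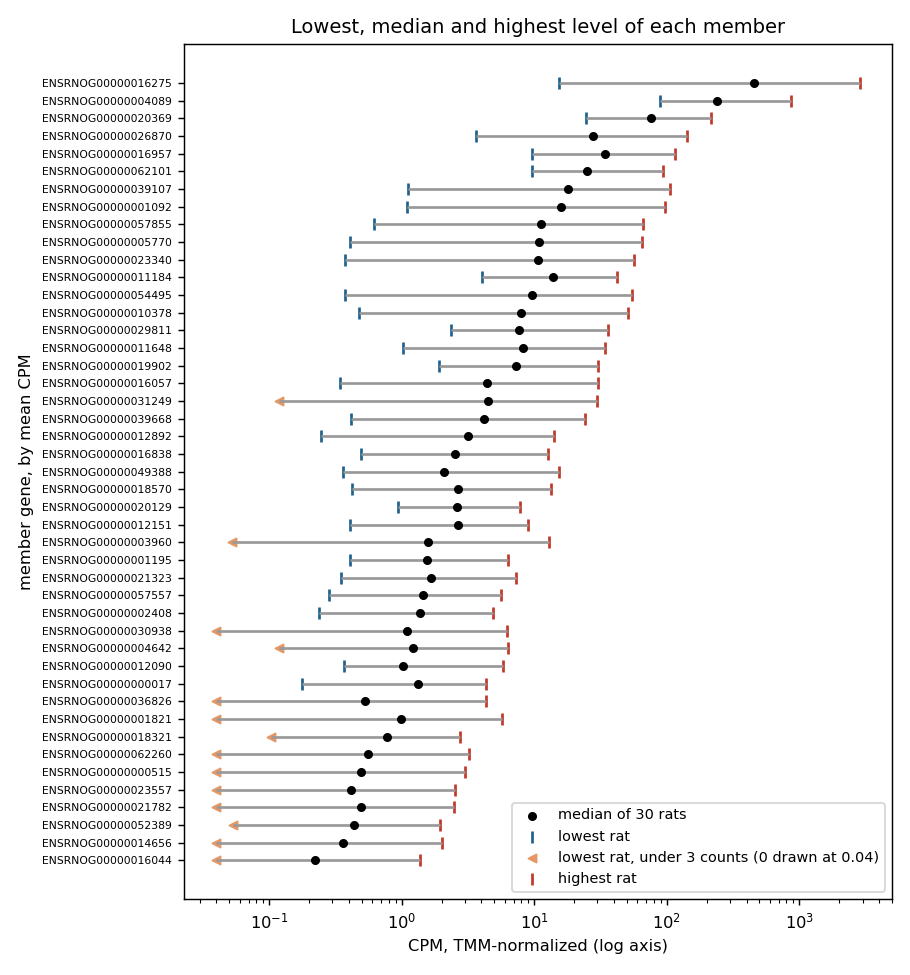
Lowest, median and highest CPM over the 30 rats for each of the 45 members, ordered by mean CPM, on a log axis. ENSRNOG00000016275 at the top reaches from 15.3 to 2881 CPM, and 14 members, drawn with an arrow, fell below 3 counts in at least 1 rat, so that their lower end is not detectable at this depth.

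Of the 45 members, 31 stayed at 3 or more counts in every library, and over these the ratio of the highest to the lowest rat ranged from 8.35 to 189 with a median of 26.1. It was under 20 for 11 of them, and the 6 widest ratios lay between 105 and 189. The other 14 were below the floor in at least 1 library, and no ratio is given for them. By mean level, 17 members were above 10 CPM and 7 were below 1 CPM.

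A straight line of each member on ENSRNOG00000016275, in CPM, described most of this. R squared over the 30 libraries had a median of 0.926 over the other 44 members, 40 were over 0.8, and the lowest was 0.672. The intercept gives the level of a gene at which the line meets a level of 0 for ENSRNOG00000016275. It was 110.5 CPM for ENSRNOG00000004089, 38.0 CPM for ENSRNOG00000020369, 16.5 CPM for ENSRNOG00000016957 and 10.95 CPM for ENSRNOG00000062101, against means of 330, 91.1, 43.4 and 35.5 CPM. For ENSRNOG00000005770 it was 0.093 CPM against a mean of 19.1 CPM, and for ENSRNOG00000057855 0.95 CPM against a mean of 20.9 CPM. In other words, the wide and the narrow members differed in the level that remained when ENSRNOG00000016275 was low. On the log2 scale, the slopes on ENSRNOG00000016275 ranged from 0.38 to 0.92 over the 44 members, all under 1. This gene had the largest standard deviation of all members, at 2.48 log2 units. Slopes under 1 therefore follow from its choice as the reference.

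The members lay on 18 chromosomes and were not gathered in one place. Chromosomes 2 and 4 held 6 each, chromosomes 1 and 11 held 4 each, the X chromosome held 3, and there were none on chromosomes 15, 16, 17 or Y or in the mitochondrial genome. Their median exonic length of 2208 bases was close to the 2300 bases of all genes that entered, with 6 against 8 exon blocks and a median gene span of 22244 against 19857 bases, and 25 were on the plus and 20 on the minus strand. Only 6 members, in 3 pairs, lay within 1 Mb of another. The closest pair was ENSRNOG00000016275 and ENSRNOG00000052389 (chr18:15553975-15558178), which lie on the same strand 13797 bases apart with 0 other listed genes between them. ENSRNOG00000052389 had a mean of 0.653 CPM and was below 3 counts in 6 of the 30 libraries, and the r between both genes was 0.852. Whether reads of the abundant gene were counted on its neighbour was not tested. The other pairs were ENSRNOG00000029811 and ENSRNOG00000026870 on chromosome 11, 208356 bases apart (r = 0.962), and ENSRNOG00000057557 and ENSRNOG00000018570 on chromosome 2, 594564 bases apart (r = 0.934).

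The rule was also applied within each title code. Applied to the 19 libraries of code XIII alone, the rule found 41 genes, and all 41 were among the 45. In the 11 libraries of code XII, 40 of these 41 entered the analysis and their r with the first component of those 11 libraries ranged from 0.878 to 0.994 with a median of 0.970. All 40 reached 0.85, as did 1.02% of the 15265 genes measured there, whose median r was 0.0085. Applied to the 11 libraries of code XII alone, the rule found 40 genes, 38 of them among the 45. In the 19 libraries of code XIII their r ranged from 0.831 to 0.982 with a median of 0.951, and 39 of the 40 reached 0.85, as did 0.708% of 15669 genes. The first component held 22.0% of the variance in code XII and 17.5% in code XIII. These values are a description and no support for the set. The libraries are the same 30 that chose the 45 genes, the first component is in large part made up of such variable genes, and the share over all genes is that of genes that mostly vary far less.

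The first component of the rest of the genes ran in a related direction, though more weakly. When the 45 members were removed, the first component of the other 15852 genes, an analysis chosen after seeing the data, held 8.95% of the variance with the second at 8.03%. Its scores had an r of 0.801, in absolute value, with those of the full component over the 30 rats. The members, which did not enter it, had an r of 0.573 to 0.795 with it and a median of 0.684. All 45 were at 0.5 or more and 0 reached 0.85. These values are a description and no support for the set. The other genes were measured in the same 30 libraries. They still include the 51 genes with an r of 0.85 or more and a standard deviation of 1 or less.

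Summed over the 45 members, the level ranged from 198 CPM in a YSR rat to 5063 CPM in an SR rat, or 25.6-fold. The sorted sums were 198, 240, 316, 519 and 4240 CPM in YSR and 227, 682, 1125, 1209 and 1641 CPM in YSS rats. The lowest, median and highest rat were at 265, 975 and 3073 CPM in CT, at 268, 2509 and 5063 CPM in SR, and at 199, 1976 and 4243 CPM in SS rats. The ranges of all groups overlapped, and the lowest rat of each group lay between 198 and 268 CPM. The means were 1389 ± 1267 CPM in CT (SD, n = 7), 2233 ± 1945 in SR (n = 7), 2114 ± 1675 in SS (n = 6), 1103 ± 1758 in YSR (n = 5) and 977 ± 540 in YSS (n = 5). Hence, the standard deviation exceeded the mean in YSR and was below it in the other groups, and it was smallest in YSS.

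**Figure D4:**
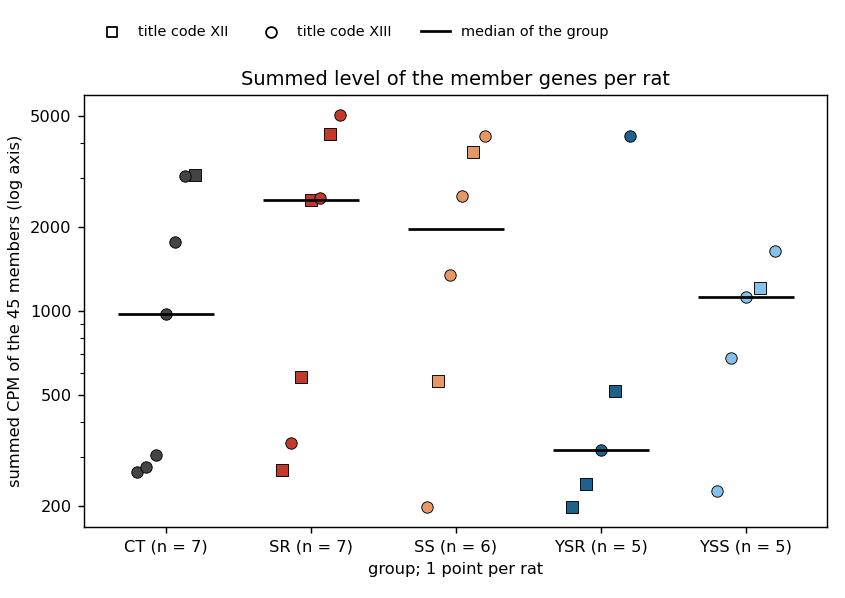
Summed CPM of the 45 members in each rat by group, on a log axis, with squares for title code XII, circles for title code XIII and a bar at the median of the group. The lowest rats of the groups lie between 198 and 268 CPM, and the single YSR rat at 4240 CPM stands far above the other 4, which lie between 198 and 519 CPM.

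Ordered by score, the highest 10 rats were 2 CT, 4 SR, 3 SS and 1 YSR, and the lowest 10 were 2 CT, 2 SR, 1 SS, 4 YSR and 1 YSS. Total counts lay between 16202659 and 18002380 in the highest 10 and between 14584340 and 19997820 in the lowest 10, and the mitochondrial share of counts between 6.66 and 9.69% and between 6.40 and 8.72%. Both measures thus overlapped between the ends of the order. The title code was mixed along it, with 4 libraries of code XII among the highest 10 and 4 among the lowest 10. The median sum was 582 CPM over the 11 libraries of code XII and 1125 CPM over the 19 of code XIII, with ranges of 198 to 4316 and 199 to 5063 CPM. The title letter was mixed at the upper end, with 5 L and 5 R, but 9 of the lowest 10 carried an R. The median sum was 1383 CPM over the 12 libraries with an L and 427 CPM over the 18 with an R, again with overlapping ranges. All 5 YSR libraries carried an R, and the 4 SR libraries with an R were at 268, 336, 2509 and 5063 CPM, so that their range overlapped that of YSR rats as before. The part of the letter in the results was not tested.

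To find out whether the level of the members differed between groups, the 8 pairs of groups that the study compared were taken from 1 edgeR quasi-likelihood fit over 15797 genes in the 30 libraries. All 45 members were among the genes tested. After Benjamini-Hochberg adjustment over all genes, 0 members had a p-value under 0.05 in any of the 8 comparisons, and DESeq2 called 0 as well. The median standard error of a member's log2 fold change lay between 0.68 and 0.90, compared to 0.08 to 0.09 over all genes tested, so that differences of several fold in these genes could have gone undetected. In this paragraph and the following ones, counts at an unadjusted p-value are given with the share of all genes that reached it. Members vary together, so that the number on one side of 0 is close to a single observation. Comparisons that share a group are not independent.

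Compared to CT rats, the members tended to higher values in both METH groups, within the spread between rats. In SR vs. CT, 44 of 45 log2 fold changes were above 0 with a median of 0.59, against 0.00 over all genes, and 0 members reached an unadjusted p-value of 0.05, as did 10.5% of all genes (0% after adjustment). ENSRNOG00000016275 had a log2 fold change of 0.79 ± 1.02 (SE, edgeR adjusted p = 0.810), a fold of 1.73 with a 95% interval from 0.407 to 7.36. In SS vs. CT, 44 of 45 were above 0 with a median of 0.52, and 0 reached the unadjusted p-value, against 5.01% of all genes (0.101% after adjustment). For ENSRNOG00000016275 the log2 fold change was 0.67 ± 1.06 (edgeR adjusted p = 0.997), with an interval from 0.357 to 7.10-fold.

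Compared to CT rats, most members had log2 fold changes below 0 in both yoked groups. These compare fitted means, and for YSS the medians lay the other way, at 1125 CPM in YSS against 975 CPM in CT rats for the summed level and at 534 against 381 CPM for ENSRNOG00000016275. In YSS vs. CT, 44 of 45 log2 fold changes were below 0 with a median of -0.54, and 0 members reached an unadjusted p-value of 0.05, against 5.01% of all genes (0.0823% after adjustment). For ENSRNOG00000016275 it was -0.61 ± 1.13 (edgeR adjusted p = 0.988), with an interval from 0.132 to 3.25-fold. In YSR vs. CT, 42 of 45 were below 0 with a median of -0.41, and 1 member was lower at the unadjusted p-value, against 7.56% of all genes in either direction and 3.67% lower (0.12% in either direction after adjustment). For ENSRNOG00000016275 it was -0.33 ± 1.13 (edgeR adjusted p = 0.961), with an interval from 0.162 to 3.91-fold. Leaving out the YSR rat at 4240 CPM, code XIII-R08, brought the median to -2.07 and the count to 30, against 8.76% of all genes, still with 0 members after adjustment and a smallest adjusted p of 0.423. In the libraries of code XIII alone, which hold 2 YSR rats including this one, the median was 0.90 and the count 0, against 5.98% of all genes.

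In SR vs. SS, the comparison of rats that did and did not persist under punishment, the members were spread around 0 when all libraries were used. The median log2 fold change was 0.02, 26 of 45 were above 0, and 0 members reached an unadjusted p-value of 0.05, against 7.46% of all genes (0% after adjustment). For ENSRNOG00000016275 it was 0.12 ± 1.06 (edgeR adjusted p = 0.989), a fold of 1.09 with an interval from 0.243 to 4.86, which leaves room for a difference of up to several fold either way. The split of the members around 0 depended on single rats. Without the SR rat XIII-R07, 2 of 45 were above 0 with a median of -0.26. Without the SS rat XIII-L03, 44 of 45 were above 0 with a median of 0.33. In code XIII alone 44 of 45 were above 0, and in code XII alone, chosen after seeing the data, 9 of 45.

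In both comparisons of METH rats with their yoked rats, all 45 log2 fold changes were above 0. In SS vs. YSS the median was 1.08, and 0 members reached an unadjusted p-value of 0.05, against 4.27% of all genes (0% after adjustment). In a fit of these 2 groups alone 5 of 43 members reached it, against 686 of all 15234 genes. Without the SS rat XIII-L05 3 of 45 did, against 752 of all 15793 genes. After adjustment 0 members passed in either fit. ENSRNOG00000016275 had a mean of 1049 CPM in SS and 432 CPM in YSS rats, with a log2 fold change of 1.28 ± 1.19 (edgeR adjusted p = 0.995) and an interval from 0.454 to 13.0-fold. In SR vs. YSR the median was 1.06, and 3 members were higher at the unadjusted p-value, against 8.17% of all genes in either direction and 3.62% higher (0.0253% in either direction after adjustment). ENSRNOG00000016275 had a mean of 1139 CPM in SR and 524 CPM in YSR rats, with a log2 fold change of 1.12 ± 1.15 (edgeR adjusted p = 0.865) and an interval from 0.426 to 11.1-fold.

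The 1 rat XIII-R08 decided the size of this last difference. Without it, the median log2 fold change in SR vs. YSR was 2.54 in place of 1.06, 43 of the 45 members were under an unadjusted p-value of 0.05 in place of 3, against 10.2% of all genes, and ENSRNOG00000016275 was at 4.06. Even so, 0 members passed after adjustment, where the smallest adjusted p-value of a member was 0.136 in edgeR. This rat stood out by the measure that was compared, so that the values without it describe the other 4 YSR rats and are not a better estimate. The labels do not say to which SR rat it was yoked. The libraries of code XII alone (4 SR, 3 YSR), which do not include it and were chosen after seeing the data, gave a median of 2.37 and 35 members under the unadjusted p-value, against 9.25% of all genes, with 0 after adjustment. The libraries of code XIII alone (3 SR, 2 YSR) gave a median of 0.24 and 0 members, against 4.54% of all genes. The difference between these codes was not tested.

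The member with the smallest unadjusted p-value in SR vs. YSR, singled out after its values were seen, was ENSRNOG00000036826 (chr7:145172493-145174771, minus strand). It was at 0, 0.060, 0.099, 0.139 and 1.13 CPM in YSR rats, and its lowest, median and highest values in SR rats were 0, 2.91 and 4.12 CPM. These ranges overlapped, and 8 of the 30 libraries were below 3 counts. In YSR rats the counts were 0, 1, 2, 2 and 19, so that every YSR library except XIII-R08 was below this floor. The SR libraries XII-R05 and XIII-R09 were below it too, at 0 and 2 counts. The log2 fold change was 2.88 ± 1.01 (edgeR unadjusted p = 0.00757, adjusted p = 0.386). This was also the member lower in YSR vs. CT, at -2.20 ± 1.04 (edgeR unadjusted p = 0.0424, adjusted p = 0.642). The same YSR libraries below the floor entered that comparison.

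Between both yoked groups, YSR vs. YSS, 30 of 45 log2 fold changes were above 0 with a median of 0.13, and 0 members reached an unadjusted p-value of 0.05, against 3.29% of all genes (0% after adjustment). For ENSRNOG00000016275 it was 0.28 ± 1.21 (edgeR adjusted p = 1), with an interval from 0.220 to 6.73-fold. Here too fitted means were compared, and the medians lay the other way. The median summed level was 316 CPM in YSR against 1125 CPM in YSS rats, and that of ENSRNOG00000016275 49.9 against 534 CPM. Without XIII-R08 all 45 log2 fold changes were below 0 with a median of -1.45, and 2 members were under the unadjusted p-value, against 4.26% of all genes, with 0 after adjustment. The libraries of code XIII alone, with 2 YSR rats including XIII-R08, went the other way, with all 45 above 0, a median of 1.25 and 0 members under the unadjusted p-value, against 3.99% of all genes. Whether the difference of SR from YSR rats was unlike that of SS from YSS rats was tested as an interaction. None of the members was called after adjustment or reached the unadjusted p-value, against 5.43% of all genes (0% after adjustment). The median of the interaction was -0.09 with a median standard error of 1.15.

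**Figure D5:**
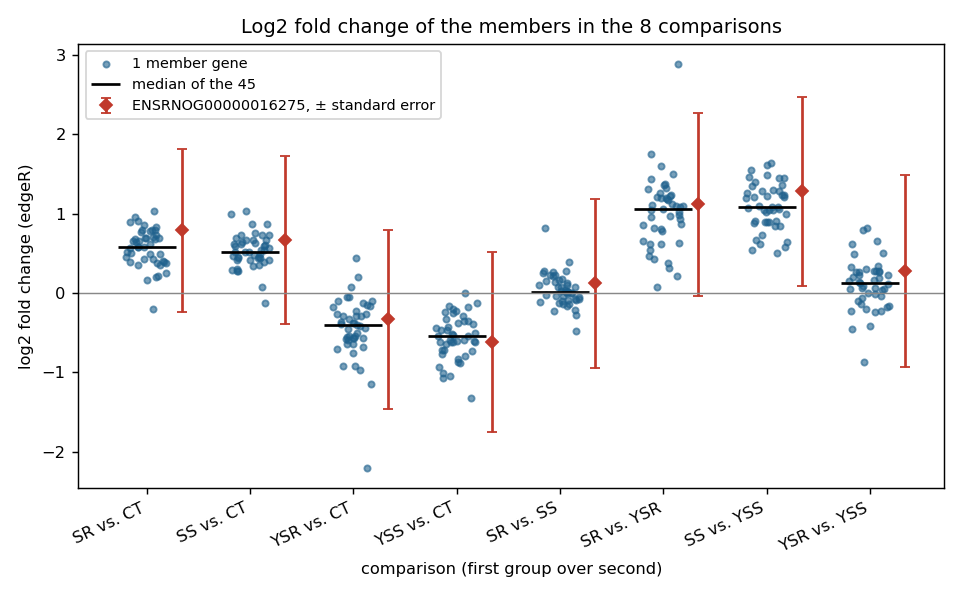
Log2 fold changes (edgeR) of the 45 members in the 8 comparisons, first group over second, with 1 blue point per gene, a bar at the median and the value of ENSRNOG00000016275 in red with its standard error. Medians range from -0.54 in YSS vs. CT to 1.08 in SS vs. YSS, and 0 members pass after adjustment in any comparison.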

How the data were processed

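Total RNA of 30 rats was enriched for mRNA, and libraries were sequenced from both ends. Per the labels' processing notes, the submitters used bcl2fastq 2.17, Trimmomatic 0.36, STAR 2.5.2b and featureCounts of Subread 1.5.2. The genome build, annotation release and strand setting are not given in the sources used here, so that a gene overlapping another or a close copy may hold reads of both. The authors deposited raw counts per Ensembl gene, 1 table per rat with positions and exonic length. The members and lists were chosen with earlier results of these data known.

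Groups came from the sample titles. Each library is a separate rat. The rule for members is given with the results, with TMM-normalized library sizes, and CPM of single genes are TMM-normalized too. Groups were compared with edgeR 4.0.16 (R 4.3.3, quasi-likelihood test, filterByExpr, TMM) over 15797 genes in 1 fit with 5 groups, as the study's analysis of variance spanned all 5. Calls had a Benjamini-Hochberg adjusted p-value under 0.05 over all genes. The analysis of variance itself was not repeated. The depth of 14584340 to 19997820 counts limits genes below the floor of 3 counts, which covers counting error only. The code was tested on simulated counts. Named were the 10 members with the highest mean CPM, the 5 with the highest r, those just inside and just outside the thresholds, ENSRNOG00000016275, members called after adjustment (0) and, after their values were seen, ENSRNOG00000036826 and members lying close together. Gene lists by symbol (cell type markers and the transcripts named in the study) were not analysed here. Sequences were not used here. Alternatives were DESeq2 1.42.0 (Wald test), median-ratio size factors, other filters, the title code as covariate or alone, 2-group fits, other settings of the rule and each library left out.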

Additional observations from a re-analysis of the deposited data

Results flagged for a closer look

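The YSR rat XIII-R08 stood apart from the other 4 YSR rats in 16 of 17 measures examined, by the gap to the nearest rat relative to the range of the group (Dixon's criterion at the 95% level). Its score on the component was 17.3 against -22.3 to -11.3 in the others, and its summed level of the members was 4240 CPM against 198 to 519 CPM. ENSRNOG00000016275 was at 2345 CPM in it (15.3 to 189 CPM in the others) and ENSRNOG00000004089 at 664 CPM (89.4 to 158 CPM). ENSRNOG00000020369 was at 217 CPM (30.5 to 49.9), ENSRNOG00000016957 at 114 CPM (9.55 to 29.9) and ENSRNOG00000026870 at 113 CPM (3.67 to 11.6). ENSRNOG00000039107 reached 91.1 CPM (1.12 to 7.46), ENSRNOG00000001092 82.6 CPM (1.17 to 8.29) and ENSRNOG00000062101 79.4 CPM (9.61 to 15.4). ENSRNOG00000005770 reached 47.6 CPM (0.537 to 4.39), ENSRNOG00000057855 42.3 CPM (0.955 to 5.09) and ENSRNOG00000019902 27.9 CPM (2.18 to 3.42). Among the low members, ENSRNOG00000052389 was at 1.72 CPM (0.053 to 0.418), ENSRNOG00000016044 at 1.13 CPM (0 to 0.209) and ENSRNOG00000036826 at 1.13 CPM (0 to 0.139). In this order, these low members were below 3 counts in 6, 13 and 8 of the 30 libraries.

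The measure in which it did not stand apart was ENSRNOG00000021323, at 3.33 CPM against 0.349 to 1.49 CPM. The summed level of this rat was within the range of the SR and SS rats, and its total count of 16708619 was within that of the other libraries. A further value that stood apart was that of ENSRNOG00000036826 in the CT rat XIII-L11, at 4.32 CPM against 0.207 to 1.93 CPM in the other CT rats. In all, 17 of 85 sets of values (17 measures in 5 groups) stood apart. The rate of about 1 in 20 that chance gives for other values does not apply here, since the genes were chosen for a wide spread and for following a single component, and CPM are skewed. The measures rise and fall together, so that the 16 in XIII-R08 amount to a single observation.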

How the results depend on the processing

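The number of members was 45 and stayed within 1.5 times of it under other prior counts, thresholds, library sizes and title codes and without each library in turn (32 to 52 members). In the 30 analyses without a library, 43 to 45 of the original members were found. It was 0 when genes were scaled to unit variance, where the members followed the second component (median r of 0.646 in absolute value) and not the first (0.0748), and 14 when 10 or more counts were required in every library, which removes genes that fall in the lowest rats. The number of members called after adjustment was 0 in all 8 comparisons, under DESeq2, median-ratio size factors, other filters, the title code as covariate, code XIII alone, 2-group fits and all 30 fits without a library. The number of members at an unadjusted p-value did change between these fits. The sign for ENSRNOG00000016275 turned in 3 comparisons. In YSR vs. CT its log2 fold change was 1.25 in code XIII alone and ranged from -3.27 to 0.060 without each library in turn. In SR vs. SS it was -0.083 in code XII alone, chosen after seeing the data, and ranged from -0.31 to 0.48 without each library in turn. In YSR vs. YSS, at 0.28 in all libraries, it ranged from -2.66 to 0.60 without each library in turn and was 1.59 in code XIII alone. The cause was not tested. Leaving out the SR rat XIII-R07 lowered the median of the members in SR vs. CT from 0.59 to 0.23 and that in SR vs. YSR to 0.75, and leaving out the SS rat XIII-L03 lowered that in SS vs. CT from 0.52 to 0.22. Leaving out the CT rat XIII-L11 brought that in YSS vs. CT from -0.54 to -0.21, and leaving out the CT rat XII-R11 raised those in SR vs. CT and SS vs. CT to 0.96 and 0.85 and brought that in YSR vs. CT to -0.05. No paired analysis was possible because the labels give the groups no shared replicate numbers and do not say which yoked rat belonged to which METH rat.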

Other observations

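Some titles of METH and yoked rats carry the same code and letter and neighbouring numbers, and the labels do not say whether these mark rats that were yoked to each other. In the 3 SR and YSR neighbours in which the yoked rat had the next higher number, the summed levels of the 45 members were as follows. They were 5063 and 4240 CPM (XIII-R07 and XIII-R08), 336 and 316 CPM (XIII-R09 and XIII-R10), and 268 and 198 CPM (XII-R05 and XII-R06). In the 4 such SS and YSS neighbours they were 4243 and 1125 CPM (XIII-L03 and XIII-L04), 199 and 1641 CPM (XIII-L05 and XIII-L06), 1353 and 227 CPM (XIII-R03 and XIII-R04), and 3728 and 1209 CPM (XII-R03 and XII-R04). Taken this way, the SR neighbours were close in level and the SS neighbours were not. With the yoked rat at the next lower number, the SR neighbours were far apart. Their sums were 336 and 4240 CPM (XIII-R09 and XIII-R08) and 2509 and 198 CPM (XII-R07 and XII-R06). For SS they were 4243 and 682 CPM (XIII-L03 and XIII-L02), 199 and 1125 CPM (XIII-L05 and XIII-L04) and 2599 and 1641 CPM (XIII-L07 and XIII-L06). The closeness thus depended on which neighbour was taken. Neighbouring CT rats, which got no shocks, also had both close and distant sums. Theirs were 304 and 275 CPM (XIII-R05 and XIII-R06), 3063 and 975 CPM (XIII-L11 and XIII-L12), and 265 and 1771 CPM (XIII-R11 and XIII-R12). These neighbours were looked at after their values were seen, and no test was made.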
